A study of Mus musculus with 6 samples.

Results

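Adrenal macrophages were the barcodes of the 2 adrenal single-cell libraries that carried macrophage transcripts and little RNA of neighbouring cell types. Members were chosen by their UMI counts of marker genes. A barcode was taken if it had at least 200 detected genes, at most 25% mitochondrial unique molecular identifiers (UMIs, each standing for 1 captured RNA molecule) and at least 5 UMIs of C1qa, C1qb and Csf1r together. Cyp11b1 also had to lie below 0.1% of its UMIs, Pecam1, Plvap and Flt1 together below 5 UMIs, and Abcb1b below 10 UMIs. This gave 331 members in the control library and 529 in the stress library, together 860 of the 5513 adrenal barcodes and of the 23083 barcodes of the whole series. The same rule found 108 and 108 barcodes in the pituitary and 253 and 208 in the paraventricular nucleus of the hypothalamus (PVN), which served for comparison.

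All mice were C57BL/6 and 10 weeks old. The stress group came from a chronic social defeat paradigm of 21 days, and the control group was unstressed. For each of the 3 tissues, organs of 5 mice were pooled into 1 control and 1 stress suspension, and the mice had been perfused with cold saline to clear blood cells. Each suspension gave 1 droplet library (10x Genomics, v2 chemistry), so a stress difference has no replicate and no test, and its interval covers counting error only.

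Macrophages are phagocytes that live in most tissues, clear dying cells and present antigen to T cells on MHC class II molecules. C1qa and C1qb encode subunits of complement C1q, and Csf1r encodes the receptor for the growth factor that keeps macrophages alive. In the adrenal gland they lie among the steroid-producing cells of the cortex and the catecholamine-producing chromaffin cells of the medulla, and glucocorticoids act on them through the receptor encoded by Nr3c1.

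The member rule used the UMIs of C1qa, C1qb and Csf1r, so these are a description. Members held a median of 59 such UMIs in the control and 68 in the stress library. Just inside the minimum, 8 and 8 members had 5 to 9 of them, and just outside, 10 and 27 barcodes had 3 to 4. The 3 exclusions removed few barcodes with enough marker UMIs: 17 and 19 by Cyp11b1, a steroid-synthesis enzyme of the cortex, 13 and 11 by the endothelial genes and 4 and 2 by Abcb1b. Members were 15.0% (exact Clopper-Pearson 95% interval 13.6 to 16.6) of the 2200 control barcodes that passed the filters and 18.9% (17.4 to 20.4) of the 2805 stress barcodes. The stress share was thus higher in this pair of pools, beside more barcodes over the mitochondrial limit in the stress library (378 of 3183, against 130 of 2330). With no cell filter the shares were 14.2% and 16.8%. Members had a median of 6447 and 6766 UMIs and of 1790 and 1926 genes, and their UMIs summed to 2733351 in the control and 4285117 in the stress library. The 2 adrenal libraries shared 10 barcode sequences, none of them among the members.

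Clustering of the members found 1 cluster that stood apart and that took a large part of the summed UMIs. Its 69 barcodes (32 control, 37 stress) were led by Wnt4, Kcnk3 and Agtr1a, and they carried the macrophage markers beside those of the cortex. Cortex markers took a median of 1.24% and 1.33% of their UMIs, against 0.0979% and 0.121% in the other members. These barcodes were also deep, with a median of 21930 and 17980 UMIs against 6199 and 6508. All 16 control and 23 stress members with a doublet score above the limit lay in this cluster. It held 28.0% of the control and 19.1% of the stress members' UMIs, so its weight differed between the pools. It is called the cortex-marker cluster here, and results that move with it are given with it and without it, which leaves 299 and 492 members.

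**Figure D1:**
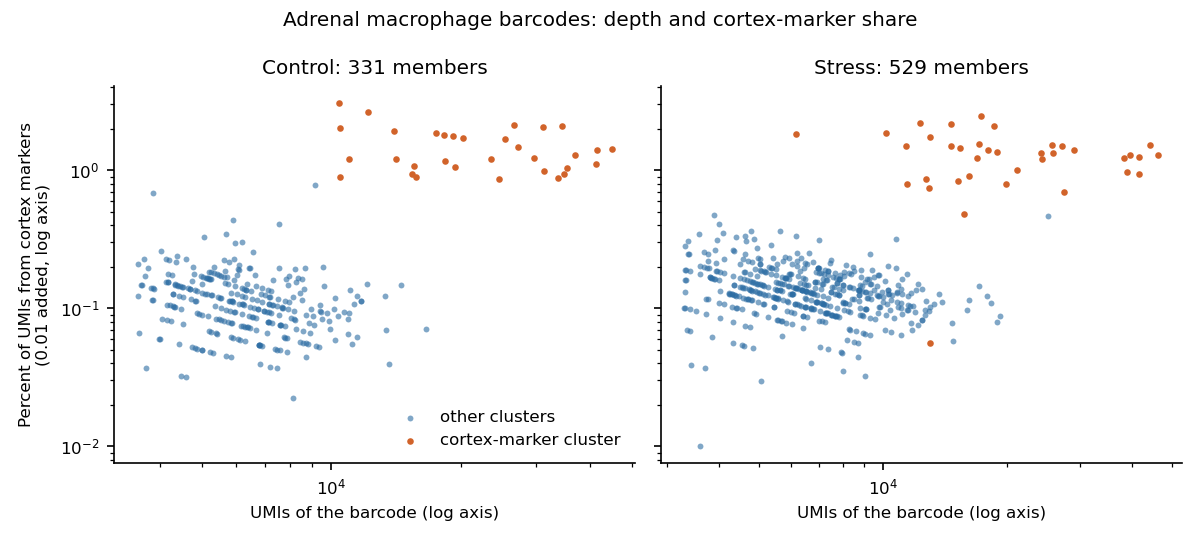
Each point is 1 member; the x axis gives its UMIs and the y axis the percent of them from 15 cortex marker genes, both on log axes (0.01 added to the percent), for the control (left) and stress (right) library. All but 1 stress barcode of the cortex-marker cluster (orange) lie above most other members, with medians of 1.24% and 1.33%.

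Markers outside the rule were those of macrophages. All 16 macrophage identity genes outside the rule were detected, and their summed level was 14560 UMIs per 1e+06 UMIs (CPM) in the control and 16870 in the stress members, against 244 and 228 CPM in the other adrenal barcodes. C1qc, the remaining C1q subunit, stood at 2605 and 3264 CPM, and Lyz2, lysozyme, at 4236 and 4732 CPM. Apoe, an apolipoprotein that carries lipid out of macrophages, stood at 23860 and 27850 CPM. Of 8 genes of newly arrived monocytes, Chil3, Vcan and Fn1 were at 0 UMIs in both libraries. Ly6c2 had 0 and 2 UMIs and Ccr2, the receptor that draws monocytes into tissue, 42 and 69. The list as a whole was not absent, at 112.3 and 104.3 CPM against 24.24 and 25.95 in the other adrenal barcodes. Most of it came from Cd44, with 250 and 374 UMIs (91.5 and 87.3 CPM). By the same rule, pituitary members had 54.9 and 47.3 CPM of the monocyte list and PVN members 18.9 and 16. Markers of other blood cells were low, at 20.1 and 4.90 CPM for T and NK cells, 6.22 and 7.70 for B cells, 16.8 and 18.7 for neutrophils, 2.20 and 0.70 for mast cells and 0 and 0 for erythroid cells. Of the 55 control UMIs of the T and NK list, 39 came from 1 barcode. The dendritic cell list was not low, at 299 and 387 CPM against 31.9 and 33.1 in the other adrenal barcodes. It reached 3 UMIs in 134 of 331 control and 269 of 529 stress members. Members of the same rule had 618 and 538 CPM of this list in the pituitary and 1129 and 1181 in the PVN. The list holds Siglech, also listed as microglial, which made up 190 and 135 of these CPM in the pituitary and 691 and 705 in the PVN. In adrenal members Siglech stood at 2.56 and 1.40 CPM. Fibroblast markers stood at 0.37 and 17.3 CPM, and endothelial markers at 58.2 and 60.0 CPM. Of the 74 stress UMIs of the fibroblast list, 58 came from 1 barcode.

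Of 14 genes listed as marking resident macrophages in many tissues, 7 had at least 50 UMIs in both libraries together, Maf and Gas6 among them. The list summed to 975 and 1254 CPM, against 127 and 172 in the other adrenal barcodes. Lyve1, Folr2, Timd4 and Cd163 were scarce. Lyve1, the hyaluronan receptor, had 1 and 2 UMIs, Folr2, a folate receptor, 0 and 0, and Timd4, which binds dying cells, 4 and 10. Cd163, the haemoglobin scavenger receptor, had 10 UMIs in the control and 8 in the stress library, or 3.66 and 1.87 CPM. Mrc1, the mannose receptor, was well measured at 89.3 and 119 CPM. After each member was thinned to 1000 UMIs, 9.37% (6.45 to 13) of control and 13.8% (11 to 17) of stress members had an Mrc1 UMI. Of the cortex cells, 1 of 652 and 0 of 888 did (0 has an interval of up to 0.415%). Without thinning the shares were 48.0% and 54.3%.

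MHC class II transcripts were abundant in nearly every member. H2-Aa encodes the alpha chain of I-A, and it stood at 8700 (8590 to 8811, exact Poisson 95% interval) CPM in the control and 8554 (8467 to 8642) in the stress members. Its partner H2-Ab1 stood at 11750 and 12230 CPM, H2-Eb1, the beta chain of I-E, at 7297 and 7535, and Cd74, the invariant chain, at 39850 and 39430. In the single member, the list took a median of 9.12% of all UMIs in the control library (10th to 90th percentile 2.98% to 12.6%) and 8.28% in the stress library (3.30% to 11.4%). No member of the 860 was at 0 for the list. After thinning to 1000 UMIs, 95.5% and 96.6% of members had an H2-Aa UMI, against 0.77% and 3.49% of cortex cells in the same libraries (99.1% and 98.7% against 16.6% and 29.4% without thinning, at medians of 6450 and 6770 against 12500 and 11400 UMIs).

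The promoters of H2-Aa and H2-Eb1 are shown because class II genes are known to share an upstream module that ends in a Y box, the letters CTGATTGG bound by the factor NF-Y. Capitals mark the Y box. The windows are the 250 bases before the RefSeq transcription start on GRCm38.p6, at chr17:34287824-34288073 (minus strand) for H2-Aa and chr17:34305617-34305866 (plus strand) for H2-Eb1, each printed 5′ to 3′ along the gene.
H2-Aa: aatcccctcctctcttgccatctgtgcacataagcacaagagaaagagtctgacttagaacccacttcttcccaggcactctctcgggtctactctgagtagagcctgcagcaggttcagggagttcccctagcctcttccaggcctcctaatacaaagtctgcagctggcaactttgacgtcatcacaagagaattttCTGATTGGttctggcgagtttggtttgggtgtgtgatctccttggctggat
H2-Eb1: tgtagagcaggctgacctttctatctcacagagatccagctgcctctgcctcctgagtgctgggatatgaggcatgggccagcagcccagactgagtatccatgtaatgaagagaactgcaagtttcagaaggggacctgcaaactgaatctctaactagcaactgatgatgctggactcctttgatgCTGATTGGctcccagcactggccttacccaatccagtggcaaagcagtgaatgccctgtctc
The match starts at position -51 in H2-Aa and -62 in H2-Eb1, counted from the start site. Searched on both strands, the letters were in 1258 of 32851 windows of this length (3.83%). Of the 11 class II genes listed, 6 had a window and 3 of these held the letters, the third being H2-Eb2.

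Class II levels set the adrenal members apart from those of the other tissues. H2-Aa stood at 6390 and 3970 CPM in the pituitary control and stress members and at 3.93 and 0 CPM in the PVN. Both adrenal libraries were above all 4 others. In edgeR's quasi-likelihood test with Benjamini-Hochberg adjustment over 9331 genes, Cd74 was 0.77 higher than in the pituitary on the log2 scale (adjusted p = 0.000425) and 7.77 higher than in the PVN (adjusted p = 2.48e-36). Of the 9 class II genes tested, 8 were higher than in the pituitary and 1 lower, beside 16.6% of all genes called higher and 14.3% called lower. Against the PVN, 7 were higher and none lower, beside 23.9% and 25.5% of all genes. Without the cortex-marker cluster, 8 and 9 were higher and none lower. The pituitary contrast was less steady: H2-Aa, at 0.74 (adjusted p = 0.000469), lost its call with DESeq2 (0.77, adjusted p = 0.52), without the stress library of the pituitary (0.55, adjusted p = 0.25) and without that of the adrenal gland (0.47, adjusted p = 0.33). H2-Eb1, at 0.92 (adjusted p = 1.70e-05), lost it under the same settings (0.94, 0.69 and 0.63; adjusted p = 0.33, 0.11 and 0.15). Pituitary members were more mixed, with a median list share of 2.16% and 0.43% and a 90th percentile of 13.7% and 12%. In all tissue contrasts, tissue cannot be told apart from the chip, the enzyme (collagenase for the adrenal gland, papain for the others) and the dissociation time, which was 55 min for the adrenal gland, 15 min for the pituitary and 35 min for the PVN.

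**Figure D2:**
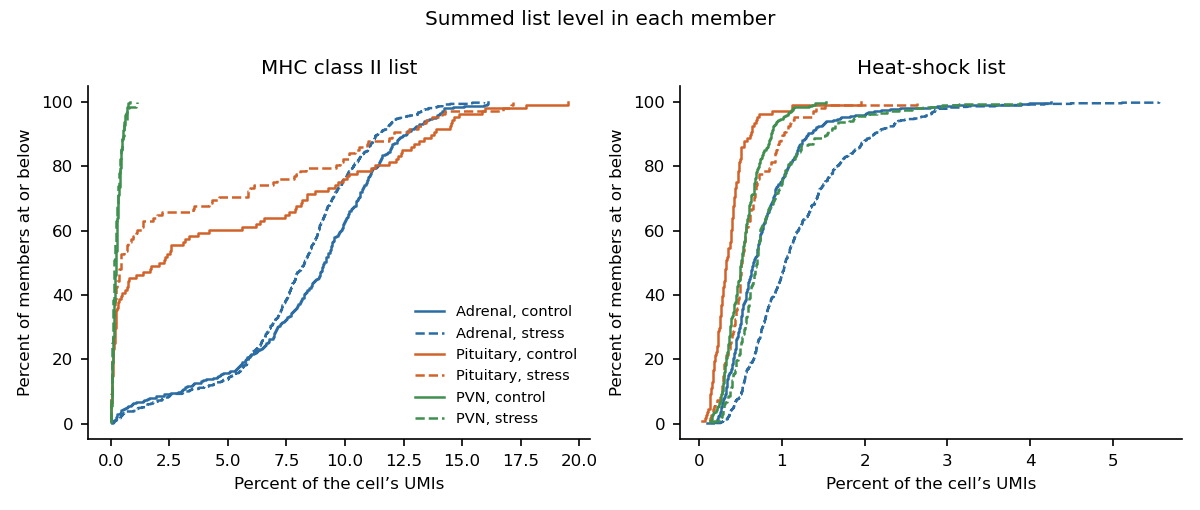
Cumulative curves give the percent of members (y axis) at or below a share of the cell's UMIs (x axis, percent) for the MHC class II list and the heat-shock list in the 6 libraries. Colours are tissues, solid lines control and dashed lines stress. In the class II panel (left) the adrenal curves lie to the right, with medians of 9.12% and 8.28% against 0.212% and 0.156% in the PVN, and in the heat-shock panel (right) the adrenal stress curve, with a median of 1.04%, lies right of the control curve at 0.649%.

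Microglial genes showed the opposite order. All 10 listed genes were lower in adrenal members than in pituitary and PVN members, beside 14.3% and 25.5% of all genes. P2ry12, a purine receptor of resting microglia, stood at 9.15 and 16.1 CPM in the adrenal control and stress members, at 291 and 265 in pituitary members and at 2550 and 2560 in PVN members (adjusted p = 1.85e-25 and 1.05e-36, edgeR's quasi-likelihood test with Benjamini-Hochberg adjustment). Tmem119, a microglial membrane protein, stood at 57.1 and 85.9 CPM, against 324 and 302 and against 1370 and 1600. Sall1, the transcription factor that keeps microglial identity, had 0 UMIs in both adrenal libraries and 23 and 10.5 CPM in pituitary and 86.5 and 81.1 CPM in PVN members. Of 12 resident-macrophage genes tested, 5 were lower than in the pituitary and 9 than in the PVN, beside 14.3% and 25.5% of all genes. In each contrast 1 was higher, beside 16.6% and 23.9% of all genes. Without the cortex-marker cluster, 3 were lower and 4 higher in the pituitary contrast, and 7 lower and 3 higher in the PVN contrast. Trem2, a lipid-sensing receptor, stood at 133 and 109 CPM, against 836 and 878 in pituitary and 1410 and 1350 in PVN members.

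Of all genes, 1144 were higher in the adrenal members than in both other tissues and 891 were lower. Those that were also at least 2 times higher in members than in other barcodes of the tissue where they were high numbered 321 and 241. Mmp12, the macrophage elastase, stood at 593 and 482 CPM, against 79.7 and 84.2 in pituitary and 0 and 0 in PVN members. Il10, an anti-inflammatory cytokine, stood at 135 and 55.8 CPM, against 0 and 1.75 in pituitary and 0 and 0 in PVN members, where 3 UMIs would have been 2.36 and 3.20 CPM (adjusted p = 1.14e-15 and 2.20e-23, edgeR's quasi-likelihood test with Benjamini-Hochberg adjustment). Clec4e (Mincle, 42.8 and 35.2 CPM), Cd207 (langerin, 28.5 and 21.2) and Gm5150 (20.1 and 21.2) had no UMI in any of the 4 other libraries. Il12b, a subunit of interleukin-12, stood at 17.9 and 35.5 CPM, with 1.07 CPM in the PVN stress library and 0 in the other 3. The rule also named Hist1h2ap, Adamdec1, Amica1, H2-Eb1, Plbd1 and H2-Aa. With DESeq2, Clec4e and Cd207 lost the call in both contrasts, and Il10, Adamdec1 and Amica1 against the pituitary.

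The genes named as lower in adrenal members than in both other tissues also numbered 12. Siglech, a sialic-acid receptor, was at 2.56 and 1.40 CPM, against 190 and 135 in pituitary and 691 and 705 in PVN members. Fcrls, an Fc-receptor-like gene, was at 17.9 and 10.3 CPM, against 608 and 843 and against 996 and 1110. Crybb1 was at 1.46 and 0.93 CPM, against 112 and 102 and against 500 and 412. The other names in this direction were Sall1, Liph, Slc2a5, Gp9, Folr2, Nav3, Tnfrsf17, RP23-81F19.2 and Adgrg1. All 12 were lower in both adrenal libraries than in any of the 4 others.

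**Figure D3:**
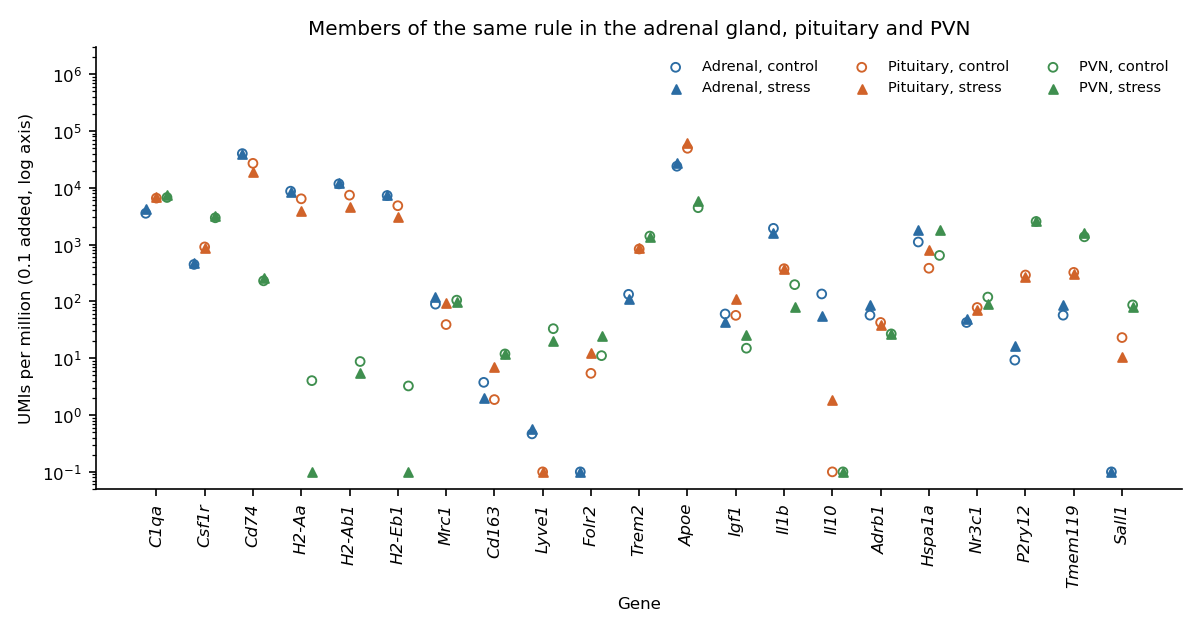
Points give the CPM (log axis, 0.1 added) of the genes on the x axis in members of the same rule; colours are tissues, open circles control and filled triangles stress. H2-Aa is at 8700 and 8554 CPM in the adrenal libraries and at most 3.93 in the PVN, while P2ry12 is at most 16.1 in the adrenal gland and at least 2550 in the PVN.

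Several cytokine, NF-kB feedback and immediate-early genes were higher in adrenal members than in pituitary members, and fewer were higher than in PVN members. Cxcl2, a chemokine for neutrophils, stood at 10270 CPM in the control and 7211 in the stress members, 5.84 above the pituitary and 2.79 above the PVN on the log2 scale (adjusted p = 1.62e-29 and 2.45e-19, edgeR's quasi-likelihood test with Benjamini-Hochberg adjustment). Il1b stood at 1929 and 1598 CPM, against 376 and 370 in pituitary and 197 and 81.1 in PVN members. Tnf stood at 832 and 628 CPM, against 21.3 and 24.5 and against 686 and 490. By list, 13 of 16 NF-kB feedback genes were higher than in the pituitary and none lower, beside 16.6% and 14.3% of all genes. Against the PVN, 10 of them were higher and 4 lower, beside 23.9% and 25.5% of all genes. Without the cortex-marker cluster these counts were 14 and 0 for the first contrast and 12 and 2 for the second. Of 16 cytokine and inflammasome genes, 10 were higher and 3 lower than in the pituitary, and 7 higher and 5 lower than in the PVN. Leaving out the cluster gave 11 and 0, and 10 and 1. Of 13 chemokine genes, 8 were higher and 3 lower than in the pituitary, and 6 higher and 4 lower than in the PVN (10 and 2, and 7 and 3, without the cluster). Of 19 immediate-early genes, 19 were higher than in the pituitary and 14 than in the PVN (18 and 16 without the cluster), Fos among them at 3894 and 4258 CPM, and 1 was lower than in the PVN either way. Ccl2 went both ways, at 272 and 263 CPM, above the pituitary (37.2 and 59.6) and below the PVN (915 and 717). Dissociation is known to induce such genes, and its time differed between the tissues, so it cannot be told apart from tissue here.

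Nr3c1, the glucocorticoid receptor, was lower in adrenal members, at 42.4 and 49 CPM against 78.0 and 70.1 in the pituitary (-0.71, adjusted p = 0.00933) and 119 and 89.6 in the PVN (-0.77, adjusted p = 0.000233, edgeR's quasi-likelihood test with Benjamini-Hochberg adjustment). Without the cortex-marker cluster neither difference passed the same test (-0.32, adjusted p = 0.296, and -0.35, adjusted p = 0.12). Of all genes, 16.6% were called higher and 14.3% lower than in the pituitary, and 23.9% and 25.5% than in the PVN. These shares, with the cluster kept, stand beside the list counts that follow. Of 21 glucocorticoid-responsive genes tested, 16 were higher than in the pituitary and none lower, and 14 were higher and 4 lower than in the PVN. Without the cluster, 19 were higher in the first contrast and 16 in the second, and none lower in either. Tsc22d3 (GILZ), a glucocorticoid-induced inhibitor of inflammation, stood at 410 and 432 CPM, against 152 and 91.2 and against 176 and 179. Fkbp5, a chaperone that dampens the receptor, stood at 96.2 and 121 CPM, against 51.4 and 52.6 and against 38.5 and 39.5. Hsd11b1, which regenerates active glucocorticoid, had 0 UMIs in the control and 6 in the stress members, and all 6 lay in 1 member. Interferon-response genes were higher than in the PVN in 16 of 16 cases, with the cluster and without it. Against the pituitary, 6 were higher and 3 lower, and without the cluster 8 were higher and none lower. Of 16 lysosomal genes, 12 were lower than in the pituitary and none higher, which became 5 lower and 2 higher without the cluster. Against the PVN, 7 were lower and 2 higher, and without the cluster 5 were lower and 6 higher.

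Stress and control members were then compared by their summed UMIs, with each gene given as a log2 ratio that is positive where the stress pool was higher. The exact interval of a ratio is conditional on the gene's total count. Over the 8174 genes with at least 50 UMIs in both libraries together, the median ratio was -0.003. At least 2-fold higher in the stress pool were 83 genes (1.02%) and at least 2-fold lower 78 (0.954%). Ratios were above 0 for 49.6% of genes and below 0 for 50.4%. Without the cortex-marker cluster, 6666 genes had 50 UMIs and the median ratio was 0.10. Ratios were then above 0 for 63% and below 0 for 37% of genes, and 122 (1.83%) were higher and 35 (0.525%) lower by at least 2-fold. These shares, with the cluster and without it, stand beside all list counts of this comparison.

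Heat-shock genes were higher in the stress pool. All 12 listed genes had a ratio above 0, beside 49.6% of all genes, with a median of 0.47 and, without the cortex-marker cluster, 0.75. Over all members none was past 2-fold, and without that cluster Hspb1 (1.80) and Hsph1 (1.19) were. Hspa1a, the inducible HSP70, stood at 1114 (1074 to 1154) CPM in the control and 1845 (1804 to 1886) in the stress members, a ratio of 0.73 (0.67 to 0.79). Its near-identical copy Hspa1b stood at 111 and 148 CPM, and reads of the pair may have been split between them. Hsph1, an HSP70 exchange factor, had the highest ratio of the list, at 72.4 and 137 CPM (0.91, 0.68 to 1.15). Dnajb1, an HSP40 co-chaperone, stood at 289 and 508 CPM (0.81, 0.69 to 0.93) and Hsp90aa1, the inducible HSP90, at 786 and 1363 (0.79, 0.72 to 0.87). Hspb1, the small heat-shock protein HSP27, had the lowest ratio, at 338 and 340 CPM (0.01), and 57.4 and 201 CPM (1.80) without the cortex-marker cluster. The single member's share of heat-shock UMIs had a median of 0.649% in the control and 1.04% in the stress library.

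Heat-shock genes were also higher in other cells and tissues of the stress pools. The list's median ratio was 0.16 in all other adrenal barcodes, 0.46 in adrenal endothelial barcodes, 0.30 in cortex cells, 0.45 in pituitary members and 0.50 in PVN members. Heat-shock genes were left out when the members were clustered. In the 4 clusters large enough to split by library, the list's median was 0.27 in the cortex-marker cluster and 0.38, 0.58 and 0.56 in the others. Against the other tissues, all 12 genes were higher in the adrenal members in both contrasts, beside 16.6% (pituitary) and 23.9% (PVN) of all genes. Hspa1a, for one, stood at 383 and 800 CPM in pituitary and 644 and 1840 in PVN members.

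Promoters of Hspa1a and Hspb1 are shown because both genes are textbook targets of the heat-shock factor, which binds inverted GAA units. Capitals mark the letters GAANNTTC. The 250-base windows lie at chr17:34972157-34972406 (minus strand) and chr5:135887669-135887918 (plus strand), from RefSeq on GRCm38.p6.
Hspa1a: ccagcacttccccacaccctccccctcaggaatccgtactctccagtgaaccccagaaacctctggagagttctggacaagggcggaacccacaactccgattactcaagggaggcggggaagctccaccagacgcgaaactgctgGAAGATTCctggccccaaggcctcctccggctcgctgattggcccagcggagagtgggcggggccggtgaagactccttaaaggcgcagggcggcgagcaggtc
Hspb1: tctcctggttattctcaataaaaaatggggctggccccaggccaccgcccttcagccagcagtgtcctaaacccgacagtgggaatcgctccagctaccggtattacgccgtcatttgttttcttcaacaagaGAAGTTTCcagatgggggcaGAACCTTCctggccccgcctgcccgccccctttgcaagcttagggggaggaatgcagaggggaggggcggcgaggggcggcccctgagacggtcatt
The match starts at -104 in Hspa1a and at -117 and -97 in Hspb1. On both strands, 2199 of 32851 windows held the letters (6.69%). Of the 12 heat-shock genes, 9 had a window and 6 of these held a match, the others being Hspa1b, Dnaja1, Hspe1 and Hspd1.

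Of the 12 genes named as lower in the stress pool, 7 were lower by a similar size with and without the cortex-marker cluster. Clec4d, a C-type lectin that senses mycobacterial lipid, had 110 UMIs in the control and 45 in the larger stress library, or 40.2 (33.1 to 48.5) and 10.5 (7.66 to 14.1) CPM, a ratio of -1.93 (-2.47 to -1.43). Slc7a11, the cystine importer that feeds glutathione synthesis, stood at 125 and 47.6 CPM (-1.39, -1.65 to -1.14). Il10 stood at 135 and 55.8 CPM (-1.27, -1.51 to -1.03). Thinned to 1000 UMIs, 9.06% (6.20 to 12.7) of control and 3.78% (2.32 to 5.78) of stress members had an Il10 UMI, and none of 652 and 888 cortex cells (17.8% and 10.0% of members, and 2 and 3 cortex cells, without thinning). Gdf15, a stress-induced cytokine, stood at 815 and 402 CPM (-1.02), beside -1.16 in the other adrenal barcodes. Hk2, a hexokinase, stood at 140 and 67.0 CPM (-1.06), and H2-M2, a class I-like gene, at 547 and 302 (-0.85). Erdr1, also on this side (-1.20), lies in a repeated region where reads can be split. Without that cluster, the ratios of these 7 ran from -2.15 for Clec4d to -1.07 for H2-M2. In the other adrenal barcodes the ratios were -0.96 for Hk2, -0.94 for Erdr1, -0.88 for Slc7a11 and -0.65 for Clec4d. H2-M2 and Il10 went the other way there, at 0.28 and 1.00. Slc7a11, Clec4d, H2-M2 and Il10 stood at 2.835 CPM or less in those barcodes.

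The other 5 genes named as lower did not keep their size. Pam, Tpd52l1, Fgfr2, Rapgef4 and Cpe had ratios of -1.16, -1.20, -1.25, -1.13 and -0.83 over all members and of -0.14, 0.84, 0.23, 0.85 and 0.84 without the cortex-marker cluster. All 5 are also found outside macrophages in this gland, for example Cpe at 2346 and 2196 CPM in the other adrenal barcodes. Cortex markers as a list stood at -0.38 with the cluster and 0.24 without it. Without the cluster, the same rule named Plaur, Pmp22, Srxn1, Nlrp3 and Gm12840 in their place.

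Genes of the oxidative-stress response were mostly lower. Of 15 listed genes, 13 had a ratio below 0, beside 50.4% of all genes, and 10 without the cortex-marker cluster, beside 37%. The list median was -0.27 (-0.23 without the cluster). At least 2-fold lower were 3 genes, beside 0.954% of all genes. Besides Slc7a11, these were Gclc, the catalytic subunit of glutathione synthesis (26.3 and 12.6 CPM, -1.06), and Srxn1, sulfiredoxin (58.9 and 29.2 CPM, -1.01). Sqstm1, the autophagy adaptor p62, stood at 482 and 331 CPM (-0.54). Hmox1, haem oxygenase, was the highest of the list at 194 and 248 CPM (0.35, 0.20 to 0.50), and at 0.15 without the cortex-marker cluster. Clec4d, Il10, Slc7a11, Srxn1 and Gdf15 were all among the 10 leading genes of 1 cluster of 157 members. The clusters were made from these genes among others, so this is a description. That cluster held 94 of the 331 control and 63 of the 529 stress members, a smaller share in the stress pool. The part of this split in the lower ratios was not tested. Within clusters the list's median was -0.15 in that cluster and 0.11 and 0.01 in the other 2 beside the cortex-marker cluster.

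Inflammatory mediators were lower by less. Of 16 NF-kB feedback genes, 15 had a ratio below 0 with the cortex-marker cluster and 15 without it, beside 50.4% and 37% of all genes. Their median was -0.15 (-0.28 without the cluster), beside -0.26 in the other adrenal barcodes. Tnfaip3 (A20), an inhibitor of NF-kB, stood at 472 and 324 CPM (-0.54), Nfkb1 at 69.5 and 45.0 (-0.63) and Birc3, the highest of the list, at 49.4 and 50.2 (0.02). Nlrp3, the inflammasome sensor, stood at 297 and 179 CPM (-0.73), beside -0.83 in the other adrenal barcodes. Tnf stood at 832 and 628 CPM (-0.41) and Il1b at 1929 and 1598 (-0.27). Among chemokines, 7 of 12 were lower (12 without the cortex-marker cluster), including Cxcl2 (-0.51) and Ccl4 (-0.46), while Ccl2 differed by less than its interval (-0.05, -0.19 to 0.08). Ccl5 had 103 and 31 UMIs (-2.37), beside T and NK markers at 20.1 and 4.90 CPM, whose part in it was not tested; T and NK cells are known to express it. Ccl8 had 10 UMIs and 1 UMI. Cytokine genes went both ways: Il16, a T-cell attractant, stood at 17.9 and 46.7 CPM (1.37) and Il12b at 17.9 and 35.5 (0.97, 0.51 to 1.48).

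Glucocorticoid-responsive genes did not stand higher as a list in the stress pool. Of 20 genes with 50 UMIs, 6 had a ratio above 0 and 14 below, with a median of -0.20 (-0.24 without the cortex-marker cluster). In the other adrenal barcodes the median was -0.23, and in cortex cells -0.67. Fkbp5 was on the higher side at 96.2 and 121 CPM (0.33, 0.12 to 0.55), as was Zbtb16 at 12.1 and 22.4 (0.88, 0.31 to 1.51). Tsc22d3 was near 0 (0.08, -0.03 to 0.18). Sgk1, a salt-handling kinase, stood at 249 and 204 CPM (-0.29, -0.43 to -0.14), Mt1, a metallothionein, at 2296 and 1790 (-0.36) and Il1r2, the decoy interleukin-1 receptor, at 33.7 and 16.8 (-1.0). Nr3c1 itself stood at 42.4 and 49 CPM, a ratio of 0.20 whose interval spanned 0 (-0.13 to 0.55).

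Adrb1, a receptor for noradrenaline, stood at 57.1 and 84.7 CPM (0.57, 0.30 to 0.85). Of the lipid-handling genes, 9 of 22 had a ratio above 0, with a median of -0.04. Spp1, osteopontin, was the highest, at 9.15 and 28.9 CPM (1.64, 1.03 to 2.34), and Plin2, which coats lipid droplets, stood at 574 and 730 (0.35). Abca1, the cholesterol exporter, stood at 36.2 and 25.9 CPM (-0.48) and Npc1, which moves cholesterol out of lysosomes, at 41.3 and 25.9 (-0.67). Apoe had a ratio of 0.22 and, without the cortex-marker cluster, 0.05.

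Interferon-response genes were higher in the stress pool in 16 of 18 cases, beside 49.6% of all genes, with a median of 0.60. Without the cortex-marker cluster 16 were higher, beside 63% of all genes, with a median of 0.40. The other adrenal barcodes had a median of 0.70 for the same genes. Ifit2 was the highest at 19.4 and 35.5 CPM (0.86, 0.41 to 1.35), Irf7, a master regulator of the response, stood at 77.2 and 116 (0.59), and Gbp2 was the lowest (-0.59). Macrophage identity genes were higher in 14 of 16 cases with a median of 0.28, beside 49.6% of all genes. Without the cortex-marker cluster they were higher in 10 with a median of 0.12, near the 63% of all genes. Cd14, the co-receptor for endotoxin, was the lowest, at 702 and 477 CPM (-0.56). Of the class II genes, 5 were higher and 4 lower with a median of 0.05, and without that cluster 1 was higher and 8 lower with a median of -0.10. Mrc1 stood at 0.42 with the cluster and 0.21 without it, where its interval spanned 0. Pf4, a platelet-factor chemokine, stood at 0.46 (116 and 160 CPM) and 0.25. Trem2 stood at -0.29 and -0.44, and Igf1 at -0.49 (60.0 and 42.7 CPM) and -0.53. Fos stood at 0.13 and 0.08, and P2ry12 at 0.80 and 0.61.

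**Figure D4:**
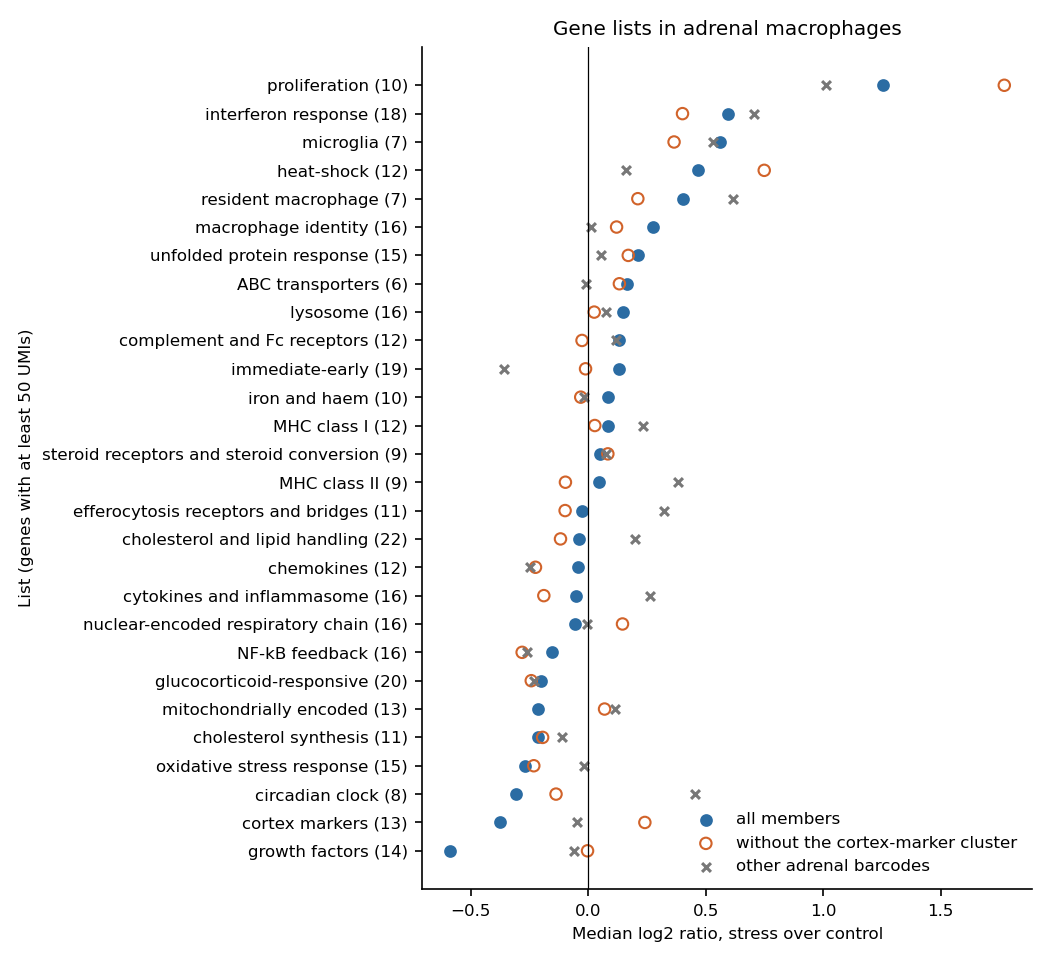
For each gene list (y axis, number of genes with at least 50 UMIs in brackets) the x axis gives the median log2 ratio of stress over control in all members (filled), without the cortex-marker cluster (open) and in the other adrenal barcodes (crosses). Heat-shock stands at 0.47 and 0.75 in members and 0.16 in the other barcodes, while interferon response stands at 0.70 in the other barcodes and 0.60 in members.

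Cell-cycle genes were higher in the stress pool, and few cells carried them. Of 10 proliferation genes, 9 had a ratio above 0 and 6 were at least 2-fold higher, beside 49.6% and 1.02% of all genes. Their median was 1.25, beside 1.01 in the other adrenal barcodes, 0.79 in adrenal endothelial barcodes and 2.31 in cortex cells. Top2a, Mki67, Birc5 and Cdk1 together reached 3 UMIs in 8 of 331 control members (2.42%, 1.05 to 4.71) and 29 of 529 stress members (5.48%, 3.70 to 7.78), intervals that overlap, and in 0 of 652 and 6 of 888 cortex cells. The cluster led by Ube2c, Birc5 and Top2a held 31 members in all, and without it the list's median was -0.40. Birc5 stood at 10.2 and 46.7 CPM (2.17) and Pcna at 77.2 and 69.3 (-0.16). Thinned to 3000 UMIs, at least 1 UMI of the 4 genes was found in 6.04% (3.73 to 9.18) and 8.70% (6.44 to 11.4) of members. In cortex cells the shares were 1.07% (0.433 to 2.20) and 2.82% (1.83 to 4.13), also higher in the stress library.

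The 12 genes named as higher included this signal and several others. Hist1h2ap, a replication-dependent histone gene, stood at 52.0 and 182 CPM (1.80) and at -0.08 without the dividing cluster, while Hist1h1e (2.24), Stmn1 (1.24) and Hmgn2 (1.18) were named beside it. Chga and Chgb, the granins of chromaffin granules, stood at 6.95 and 28.7 CPM (2.01) and 12.8 and 40.4 CPM (1.64). Both are chromaffin genes, and they stood at 131 and 243 and at 218 and 366 CPM in the other adrenal barcodes. Chromaffin markers reached 3 UMIs in 2 control and 16 stress members; their part in the result was not tested. Tnfaip8l2 (TIPE2), which restrains immune receptor signalling, stood at 34.0 and 83.1 CPM (1.28), Il16 at 1.37, and Txnip, a glucose-responsive inhibitor of thioredoxin, at 62.6 and 127 (1.02). Gm26522 (1.58), 1810011H11Rik (1.45) and Ly6a (1.22) completed the set. Of the 12, 7 were named in the same direction without the cortex-marker cluster, where Hspb1, Ldhb, Hsph1, H2afx and H1f0 took the other places.

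**Figure D5:**
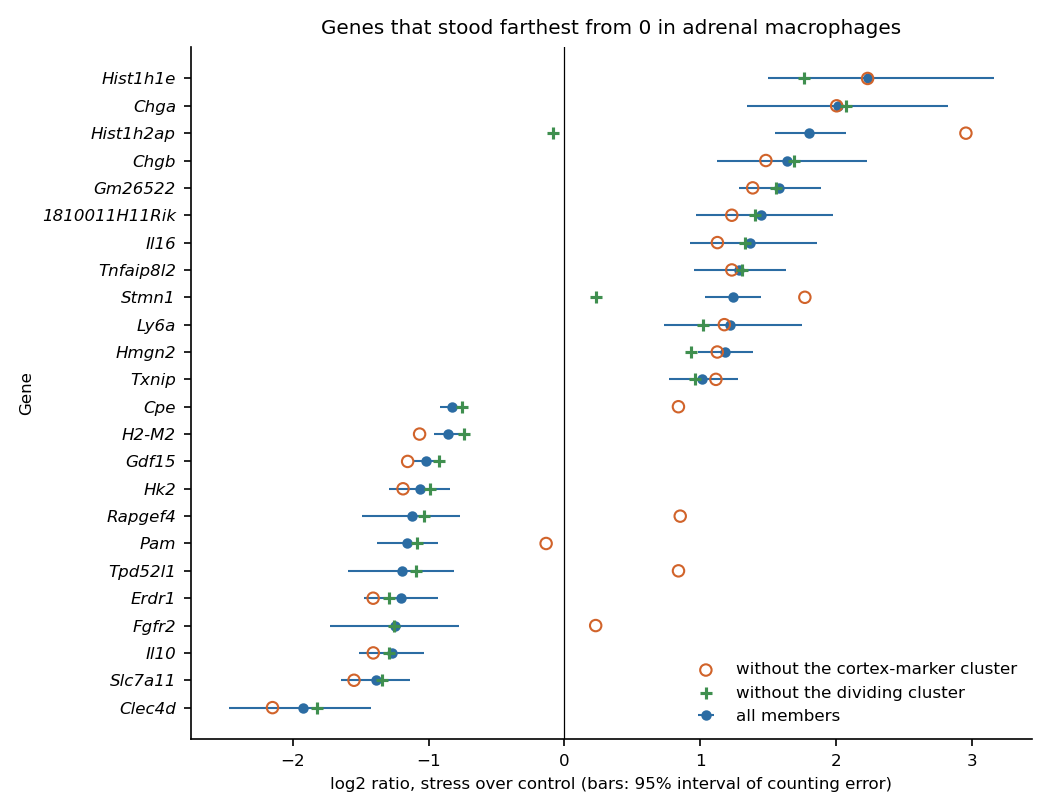
The 12 genes named in each direction (y axis) with the log2 ratio of stress over control (x axis); filled points with 95% intervals of counting error are all members, open points leave out the cortex-marker cluster and crosses the dividing cluster. Clec4d, Slc7a11 and Il10 lie at -1.93, -1.39 and -1.27 and stay on that side, while Hist1h2ap goes from 1.80 to -0.08 without the dividing cluster.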

How the data were processed

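Single-cell UMI counts of 6 libraries (10x Genomics v2) were used as deposited, not normalised; they came from Cell Ranger 2.1.1 on mm10 per the submitters' processing notes, which also list Scanpy. Adrenal totals were 29059956 and 33836656 UMIs in 2330 and 3183 barcodes. The annotation and settings of the counting are not given in the sources used here. Members and gene lists (42 lists, 538 genes, of which 5 were not found) were chosen with earlier results of these data known.

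For stress against control, UMIs were summed over members per library and given as CPM, with 0.5 UMI added for ratios, exact Poisson, conditional or Clopper-Pearson 95% intervals, and no test. Droplet reads were collapsed by molecular identifier, and intervals cover counting error only. Tissues were compared with edgeR 4.0.16 (limma 3.58.1, R 4.3.3, TMM, filterByExpr, quasi-likelihood test, condition as covariate) on sums of the 6 libraries. The threshold was an adjusted p of 0.05. A tissue's control and stress pools were its 2 libraries. With condition as covariate, the p-values rest on how far the difference between control and stress pools departs between tissues. They do not measure a spread of replicate pools, as no tissue and condition had any. Doublet scores (2 simulated per barcode, limit at 0.8% per 1000 barcodes) and Leiden clusters used scanpy 1.11.5 and scikit-learn 1.9.0; clustering left out immediate-early, heat-shock, mitochondrial, ribosomal, haemoglobin, cortex marker and sex-linked genes. Members scored as doublets were kept. Scripts were tested on simulated data.

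Named for stress were the 12 genes in each direction with the interval bound farthest from 0, given at least 100 UMIs and a UMI in 10% of members of 1 library; for tissues, the 12 with the largest mean log2 difference among those called against both tissues and at least 2 times over other barcodes; for lists, the highest and lowest gene; and a fixed set. A few genes that these rules name are not reported here. Alternatives were DESeq2 1.42.0, other filters and scalings, thinning and leaving out libraries or barcodes. Genes the results turn on lie, in GENCODE vM21 (GRCm38), at chr17:34282744-34287823 (H2-Aa), chr17:34969190-34972156 (Hspa1a), chr1:131019845-131024974 (Il10), chr6:123262111-123275265 (Clec4d) and chr3:49892526-50443614 (Slc7a11), coordinates matched by gene ID.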

Additional observations from a re-analysis of the deposited data

Results flagged for a closer look

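For 1 list and 9 genes, the stress pool stood on opposite sides of its control in the adrenal members and in members of another tissue. With 1 library per tissue and condition, the difference between tissues was not tested for any of them.

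The class II gene H2-Ab1 had a ratio of 0.06 in the adrenal gland and -0.70 (-0.77 to -0.63) in the pituitary, and H2-Eb1 of 0.05 and -0.66 (-0.75 to -0.57). Without the cortex-marker cluster the adrenal ratios were -0.09 and -0.10, on the same side as in the pituitary. Hmox1, haem oxygenase, had 0.35 and -0.69 (-1.18 to -0.21), and Igf1, a growth factor, -0.49 and 0.97 (0.35 to 1.64). The granins Chga and Chgb had 2.01 and 1.64 in the adrenal members and -0.72 (-1.27 to -0.19, from 80 and 49 UMIs) and -0.59 (-0.87 to -0.33) in the pituitary members, which also carried hormone transcripts at 1.53e+05 and 2.02e+05 CPM.

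Against the PVN, Fos had a ratio of 0.13 in adrenal and -0.25 (-0.34 to -0.16) in PVN members. Hk2, a hexokinase, had -1.06 and 0.31 (0.06 to 0.56), and Hmgn2, a nucleosome-binding protein, 1.18 and -0.53 (-0.96 to -0.11). The cholesterol synthesis list had a median of -0.21 in adrenal members and 0.35 in PVN members.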

How the results depend on the processing

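Over all results and alternatives, 1458 values were counted as kept, 263 as moved, 18 as having lost a call and 28 as having changed sign. A gene of the tissue contrasts was kept if its side and call held, whatever its size. A change of sign was counted for a gene's stress ratio only if that was at least 2-fold, and for a list median only if it was not near 0. Cpe, at -0.83 and at 0.84 without the cortex-marker cluster, is thus not among the 28. Alternatives that leave out the cortex-marker cluster, the dividing cluster or barcodes with cortex or lymphoid markers (dendritic genes not used) were chosen after seeing the data. No paired analysis was possible because each tissue and condition had 1 library with no replicate number. Counts and ratios of genes under about 50 UMIs are limited by depth.

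The share of members was 6.95% in the control and 7.34% in the stress library without barcodes holding other immune or cortex markers, and the stress share was 17.0% with no mitochondrial limit and 16.8% with no cell filter. The 83 genes at least 2-fold higher became 19 after thinning, 41 without the dividing cluster, 232 with a minimum of 20 UMIs and 1083 with none. The 78 lower became 14 after thinning, 20 without other immune or cortex markers, 35 without cortex or lymphoid markers, 35 without the cortex-marker cluster, 211 with the minimum of 20 and 1380 with none.

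In the order without other immune or cortex markers, without cortex or lymphoid markers and without the cortex-marker cluster, list medians were 0.84, 0.77 and 0.75 for heat-shock, -0.16, -0.11 and -0.10 for MHC class II, 0.08, 0.12 and 0.12 for macrophage identity, 0.25, 0.10 and 0.07 for mitochondrially encoded genes and 0.25, 0.32 and 0.24 for cortex markers. The first of these gave -0.01 for oxidative stress and 0.09 for growth factors. After thinning, medians were -0.04 for MHC class II, 0.05 for macrophage identity, 0.32 for proliferation, 0.01 for growth factors and 0.06 for cortex markers. With each cell weighted equally they were -0.04 for MHC class II, 0.64 for heat-shock and 0.11 for macrophage identity. With the other adrenal barcodes' ratio subtracted they were -0.34 for MHC class II, 0.12 for NF-kB feedback, 0.09 for glucocorticoid-responsive, 0.22 for heat-shock, -0.07 for interferon response, 0.28 for proliferation, -0.22 for resident macrophage and -0.24 for microglia. Without the dividing cluster, proliferation was -0.40.

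Among genes, Hist1h2ap was -0.08 without the dividing cluster. With the other barcodes subtracted, Tnfaip8l2 was -0.60 and Gdf15 0.14. In the same order as above, Tpd52l1 was 1.28, 0.94 and 0.84, Fgfr2 0.79, -0.19 and 0.23 and Rapgef4 0.16, 0.49 and 0.85. After thinning, Tpd52l1 was 1.01 and Fgfr2 0.17, and Pam 0.31 without other immune or cortex markers. The cause of these changes was not tested.

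Against the pituitary, 1548 higher and 1330 lower genes became 783 and 694 with DESeq2 and 747 and 491 without other immune or cortex markers; leaving out 1 library gave 1037 to 1732 and 764 to 1355, the 764 without the pituitary control. Against the PVN, 2232 and 2384 became 1256 and 1317 with DESeq2 and 845 and 804 without those markers, and 1779 to 2535 and 1785 to 2752 without 1 library. Slc2a5 against the pituitary was 0.07 without other immune or cortex markers, where few members were left. That filter drops barcodes with at least 3 UMIs of the dendritic cell list, which holds Siglech. It thus takes out Siglech-rich members by design, so the loss of the Siglech call given below was set by the filter. It left 58 and 61 pituitary and 38 and 35 PVN members. Calls were lost against the pituitary by H2-Aa and H2-Eb1 as given above, by Clec4e, Cd207, Il10, Adamdec1 and Amica1 with DESeq2, by Adamdec1 without the adrenal stress library, by Nav3 without the pituitary stress library and by Folr2, Siglech and Adgrg1 without other immune or cortex markers.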

Other observations

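Genes of the unfolded protein response were on the higher side of the stress pool in 12 of 15 cases, beside 49.6% of all genes, with a median ratio of 0.21. Without the cortex-marker cluster 11 were, beside 63% of all genes, with a median of 0.17. Xbp1, a transcription factor of this response, had the highest ratio, 0.48, and Atf4 the lowest, -0.37. Of 8 circadian clock genes, 6 were on the lower side with a median of -0.31, and Bhlhe40, a transcriptional repressor, had 48 and 26 UMIs (-1.52, -2.28 to -0.82). Among complement and Fc receptor genes, 10 of 12 were on the higher side (5 without that cluster), with Cfp, properdin, at 30.0 and 56.0 CPM (0.89, 0.53 to 1.28). Of the 16 lysosomal genes, 14 were on the higher side with a median of 0.15, beside 49.6% of all genes. Without that cluster 9 were, with a median of 0.03, beside 63% of all genes. The 13 mitochondrially encoded genes had a median of -0.21 and, without that cluster, 0.07.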
